A study of Mus musculus with 24 samples.

Results

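Heavy chain V segments (Ighv) are the gene pieces that encode most of the antigen-binding domain of an antibody heavy chain. They were taken as every row of the deposited count table whose name starts with Ighv, which gave 97 of 14106 rows, in 15 V families (the number after Ighv and before the first hyphen). The counts are of poly(A) RNA reads from B cells of mouse spleen, with 3 libraries in each of 2 groups. All cells were cultured with interleukin 4 and lipopolysaccharide for 28 h and then for 32 h more with 2 µM 4-hydroxytamoxifen, 60 h in all, and all carried the tamoxifen-activated Cre allele Rosa26ERT2-cre/+. The Spt5-depleted cells also carried Supt5hFl/-, one floxed and one null allele of the gene for Spt5, a subunit of the elongation factor DSIF. The control cells, called WT, had the recombinase alone, so the null allele and the induced deletion cannot be told apart. No age is labelled, and it is not stated that replicate libraries are from different animals, so p-values measure only how far these libraries differ from each other, which may be technical variation. The labels give the cells as mature and, elsewhere, as immature.

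In a developing B cell one V segment is joined to a D and a J segment, and the joined exon is spliced to a constant region, first mu or delta and, after class switching, gamma, epsilon or alpha. Each mature B cell therefore transcribes mainly a single productive V segment, and counts from a culture add up the repertoire of many cells. Promoters of V segments are weak by themselves and are driven by the enhancers of the Igh locus. In bulk RNA, fewer cells that use a V segment and less V mRNA per cell cannot be told apart.

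Supt5, the targeted gene, had 160, 160 and 192 CPM (counts scaled to library size, with TMM normalisation) in WT and 10.6, 9.18 and 13.6 CPM in Spt5-depleted libraries. Libraries held between 17306549 and 25649611 counts, with the depleted group the shallower one throughout. WT replicate 2 stood apart in immunoglobulin reads. It had the highest WT value in 80 of the 82 Ighv rows that passed the filter on low counts, and in 29.5% of all tested genes. Results are therefore also given without it. The B cell markers Cd79a, Cd79b, Ms4a1 and Pax5 were present in all 6 libraries and did not pass the test, while Cd22 fell (log2 fold change -1.48, depleted over WT). Xist ranged from 468 to 915 CPM in WT and from 1.00 to 1.73 CPM in depleted libraries, and Y-linked mRNAs showed the opposite pattern, so the sex of the cells and the genotype cannot be told apart.

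Heavy chain V reads as a whole were lower after Spt5 depletion. Summed over all 97 rows, the Ighv total came to 716, 1570 and 825 CPM in WT and to 443, 441 and 528 CPM in Spt5-depleted libraries. The groups did not overlap, although WT replicate 1 lay closer to the highest depleted library than to WT replicate 2. The mean was 1037 ± 464 CPM (SD, n = 3) in WT and 471 ± 49.8 CPM (SD, n = 3) in depleted cells, a log2 fold change of -1.14 ± 0.32 SE (edgeR quasi-likelihood test, adjusted p = 0.0231). Without WT replicate 2 the change was smaller and its p lower (-0.72, adjusted p = 7.22e-05). The call was lost without WT replicate 3 (-1.28, adjusted p = 0.0547) and without Spt5-depleted replicate 1 (-1.10, adjusted p = 0.0841).

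The fall was spread over many V segments and no Ighv row was called higher. Of the 82 rows that passed the filter, 65 were lower at an adjusted p under 0.05 and 0 higher, where 30.6% of all tested genes were lower and 31.8% higher. Their median log2 fold change was -1.15 (range -2.44 to -0.05), against 0.005 over all tested genes, and the 17 rows that did not pass also had negative estimates. Some of these directions turn: without WT replicate 2, 4 of 82 rows had estimates above zero, and 1 did with scaling by library totals alone, without WT replicate 3 or without Spt5-depleted replicate 2. In 63 of the 82 rows every depleted library lay below every WT library, which 33.3% of all tested genes did, and in 0 rows every depleted library lay above, which 34.2% did. A row can pass this filter through WT alone, and with no filter 64 of 97 rows were lower and 0 higher. Among the 42 rows with a mean of at least 5 CPM over the 6 libraries, a level that a row can also reach through WT, 37 were lower and 0 higher. Without Spt5-depleted replicate 1 the count was 38 of 85, and without WT replicate 2 it was 55 of 82 with a median of -0.74. The authors' deposited table has 65 of the 97 rows lower at its adjusted p under 0.05 and 0 higher (25.7% and 26.4% of all its rows). The 15 rows below the filter had 10 to 65 counts over the 6 libraries and together 275 counts in WT and 136 in depleted cells. Ighv8-13, one of these, had 4, 2 and 4 counts in WT and 0 in each depleted library, too few to size a change.

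The 12 Ighv rows with the most reads took 46.6% of all Ighv reads, and 11 of them fell. CPM are not corrected for length, so this order is of reads and not of transcripts. Ighv3-6 led with 55.0, 122 and 60.7 CPM in WT and 30.1, 31.1 and 31.1 CPM in depleted libraries. The depleted values lay close together and below all of WT (log2 fold change -1.36 ± 0.33 SE, edgeR adjusted p = 0.0137). Ighv10-1 had 40.9, 112 and 53.3 CPM in WT and 27.2, 25.2 and 31.8 CPM in depleted libraries. Its groups did not overlap, but its p stood at the threshold (-1.29 ± 0.43 SE, edgeR adjusted p = 0.0498) and several alternatives lost the call (adjusted p up to 0.138, without Spt5-depleted replicate 1). Ighv5-4 went from 33.6, 59.7 and 41.7 CPM to 15.6, 18.4 and 24.4 CPM (2.31-fold lower, edgeR adjusted p = 0.00255), and Ighv10-3 from 30.0, 71.7 and 35.9 CPM to 16.7, 14.8 and 18.2 CPM (-1.46, edgeR adjusted p = 0.0145). In both, too, all depleted libraries were below all WT libraries. Ighv8-8 was the steadiest of the 12 in WT, at 23.4, 36.7 and 32.2 CPM against 17.9, 14.0 and 16.7 CPM (-0.93 ± 0.16 SE, edgeR adjusted p = 0.000215). Ighv9-3, Ighv1-82, Ighv7-3, Ighv1-39, Ighv1-22 and Ighv6-3 also fell, with log2 fold changes between -0.94 and -1.51. Without Spt5-depleted replicate 1, Ighv3-6, Ighv10-1, Ighv10-3, Ighv9-3, Ighv1-82, Ighv7-3, Ighv1-22 and Ighv6-3 no longer passed, with estimates still negative. Ighv5-16 was the exception, with 554, 1178 and 587 counts in WT and 288, 342 and 415 counts in depleted libraries (-1.01, edgeR adjusted p = 0.0534). Its groups did not overlap either, and it passed without WT replicate 2 (-0.51, adjusted p = 0.00159).

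The smallest p-values belonged mostly to rows with few reads. Ighv1-58 had 3.41, 5.77 and 4.08 CPM in WT and 1.17, 1.83 and 1.43 CPM in depleted libraries (log2 fold change -1.57 ± 0.25 SE, edgeR adjusted p = 7.58e-05). Ighv1-5 showed the largest fall of any tested Ighv row, from 32, 69 and 40 counts to 8, 5 and 10 counts (-2.44 ± 0.41 SE, edgeR adjusted p = 0.000111). Ighv1-67 fell from 20, 23 and 23 counts to 2, 4 and 6 counts (-2.27 ± 0.42 SE, edgeR adjusted p = 0.00026). Ighv5-2, the tested V segment nearest to the D segments, fell from 37, 69 and 44 counts to 8, 12 and 14 counts (-1.98), and Ighv1-12 from 40, 95 and 78 to 15, 12 and 21 counts (-1.98). The rows named up to here in this paragraph had fold changes beyond the Ighv median of -1.15, at depths where a few reads move the estimate. Others among the 10 smallest p lay nearer to it. Ighv7-1 (-1.36), Ighv1-59 and Ighv1-7 (both -1.32) fell somewhat more than the median, and Ighv8-8 (-0.93) and Ighv2-5 (-1.03) less. Whether any of these rows fell more than other V segments was not tested.

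V segments of a family are alike in sequence, so reads can be lost or exchanged between them in the alignment, and family sums are less exposed to this. Of 15 families, 12 fell and 0 rose in the fit on sums, where 30.6% of all tested rows were lower and 31.8% higher. Family 1, with 47 rows the largest, had 257, 572 and 294 CPM in WT and 141, 153 and 178 CPM in depleted libraries (log2 fold change -1.25 ± 0.34 SE, edgeR adjusted p = 0.0237). Its libraries did not overlap between groups, and 33 of its 38 tested rows were lower. Family 5, with 9 rows, had 105, 222 and 117 CPM in WT and 59.4, 64.2 and 77.2 CPM in depleted libraries (-1.14 ± 0.32 SE, edgeR adjusted p = 0.0255). Family 10, with 2 rows, went from 70.9, 185 and 89.3 CPM to 43.9, 39.9 and 50.0 CPM (-1.36 ± 0.41 SE, edgeR adjusted p = 0.0377), and family 3 from 73.2, 162 and 83.8 CPM to 44.4, 40.7 and 44.9 CPM (-1.29 ± 0.33 SE, edgeR adjusted p = 0.0174). In all 4 of these families WT replicate 2 was far above the other libraries. Each of them lost the call without Spt5-depleted replicate 1 (adjusted p from 0.0614 for IGHV family 3 to 0.11 for IGHV family 10), and all but family 3 also without WT replicate 3.

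**Figure D1:**
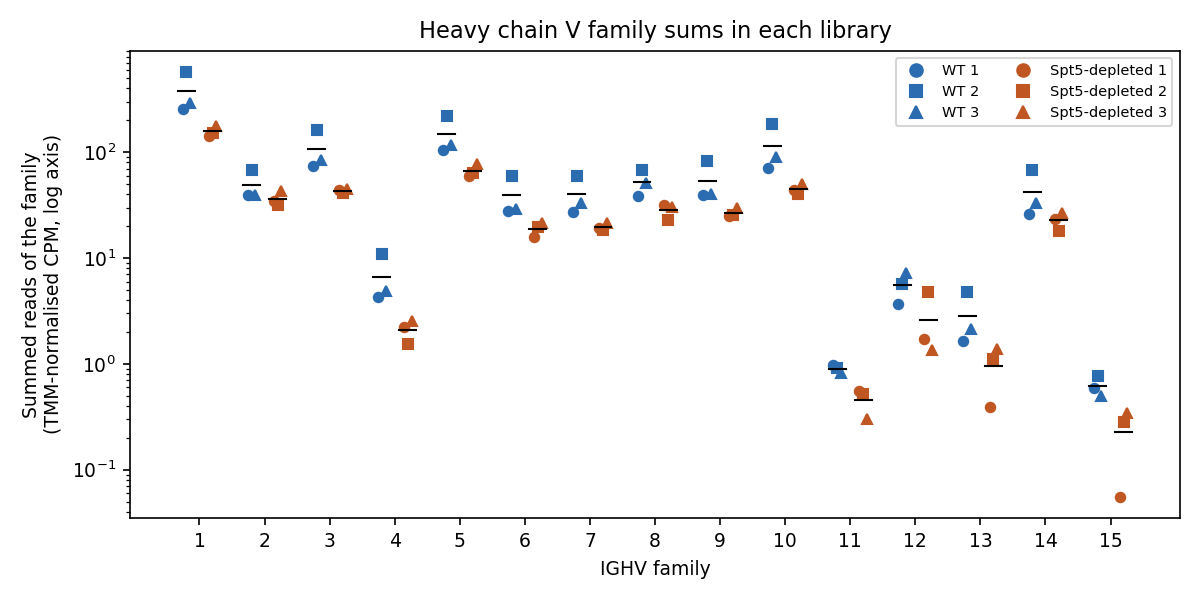
Summed TMM-normalised CPM of each of the 15 IGHV families (log axis) in the 3 WT and 3 Spt5-depleted libraries, with a black line at each group mean. WT replicate 2 is the highest library in most families, and depleted libraries lie below all WT libraries in every family except 2, 12 and 14.

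The smaller families behaved alike, with some exceptions. Families 6, 7, 8 and 9 had log2 fold changes between -0.90 and -1.04, and each passed. The single-row families 4, 11, 13 and 15 also fell, at -1.65, -0.99, -1.51 and -1.35. IGHV family 11, IGHV family 13 and IGHV family 15 lost the call without WT replicate 2 (adjusted p = 0.0553, 0.0517 and 0.0958). Family 11 and family 12 are known for the phosphatidylcholine-binding receptors of B-1 cells. Ighv11-2, the family 11 row, had 23, 20 and 20 counts in WT and 10, 11 and 7 counts in depleted libraries, so it was 1 of the 2 tested rows in which WT replicate 2 was not the highest. The other was Ighv12-3, the family 12 row, with 88, 126 and 175 counts in WT and 31, 102 and 31 counts in depleted libraries. Its groups overlapped through Spt5-depleted replicate 2 (log2 fold change -1.08, edgeR adjusted p = 0.0824), and without that library the sum of IGHV family 12 passed (-1.87, adjusted p = 0.0002). Family 14 did not pass (-0.89, edgeR adjusted p = 0.128). The call counts of the families were less stable than their direction: 9 were lower without WT replicate 2, 5 without WT replicate 3 and 4 without Spt5-depleted replicate 1, with 0 higher in each.

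Family 2 fell least. Its sum was 39.6, 67.6 and 39.4 CPM in WT and 34.5, 31.7 and 43.3 CPM in depleted libraries, so the groups overlapped (log2 fold change -0.42 ± 0.22 SE, edgeR adjusted p = 0.134). Without WT replicate 2 the estimate for IGHV family 2 was -0.12 (adjusted p = 0.445). Of its 7 tested rows 1 fell. That row, Ighv2-5, had 3.16, 5.91 and 4.28 CPM in WT and 2.23, 2.39 and 1.90 CPM in depleted libraries (-1.03 ± 0.24 SE, edgeR adjusted p = 0.00159). The row with most reads, Ighv2-2, had 14.3, 23.2 and 15.6 CPM against 10.4, 10.9 and 15.9 CPM (-0.50, edgeR adjusted p = 0.0657). Ighv2-9 had 5.77, 10.8 and 4.90 CPM against 5.81, 5.76 and 7.40 CPM (-0.17), and Ighv2-9-1 had 5.85, 8.86 and 3.79 CPM against 5.47, 4.68 and 6.23 CPM (-0.17). In these 3 rows depleted libraries reached or passed the lower WT libraries.

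Family shares were computed within each library as percentages of its Ighv reads, which removes library scaling and the height of WT replicate 2. Family 2 took 5.53%, 4.31% and 4.78% of Ighv reads in WT and 7.78%, 7.18% and 8.18% in depleted libraries. Every depleted library was above every WT library, and the mean share rose 1.58 times, from 4.87% ± 0.62 to 7.72% ± 0.51 (SD, n = 3 each; exact permutation test, two-sided, p = 0.1, adjusted p = 0.25 over 15 families). With 3 libraries against 3 this test cannot go below 0.1. Set against all other Ighv reads, family 2 was 0.71 higher on the log2 scale in depleted cells (0.62 without WT replicate 2). Family 1 took 35.8%, 36.5% and 35.6% in WT and 31.9%, 34.6% and 33.6% in depleted libraries, so its share was lower in each. Families 3 and 4 were also lower in every depleted library, and families 7 and 9 higher, which makes 6 of 15 families without overlap, 3 in each direction. Over all tested genes 33.3% were lower and 34.2% higher without overlap in CPM. That measure keeps the whole difference between groups and shares do not, so it cannot decide whether 6 is many. Nothing is drawn from this count. Shares sum to the whole, so a higher share of one family lowers the others. The mean share of the rare family 4 went from 0.63% to 0.44%. In families 1, 3, 7 and 9 the depleted share was 0.93, 0.90, 1.07 and 1.09 times that of WT. Family 5 held 14.7%, 14.1% and 14.2% in WT and 13.4%, 14.5% and 14.6% in depleted libraries, so its groups overlapped.

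**Figure D2:**
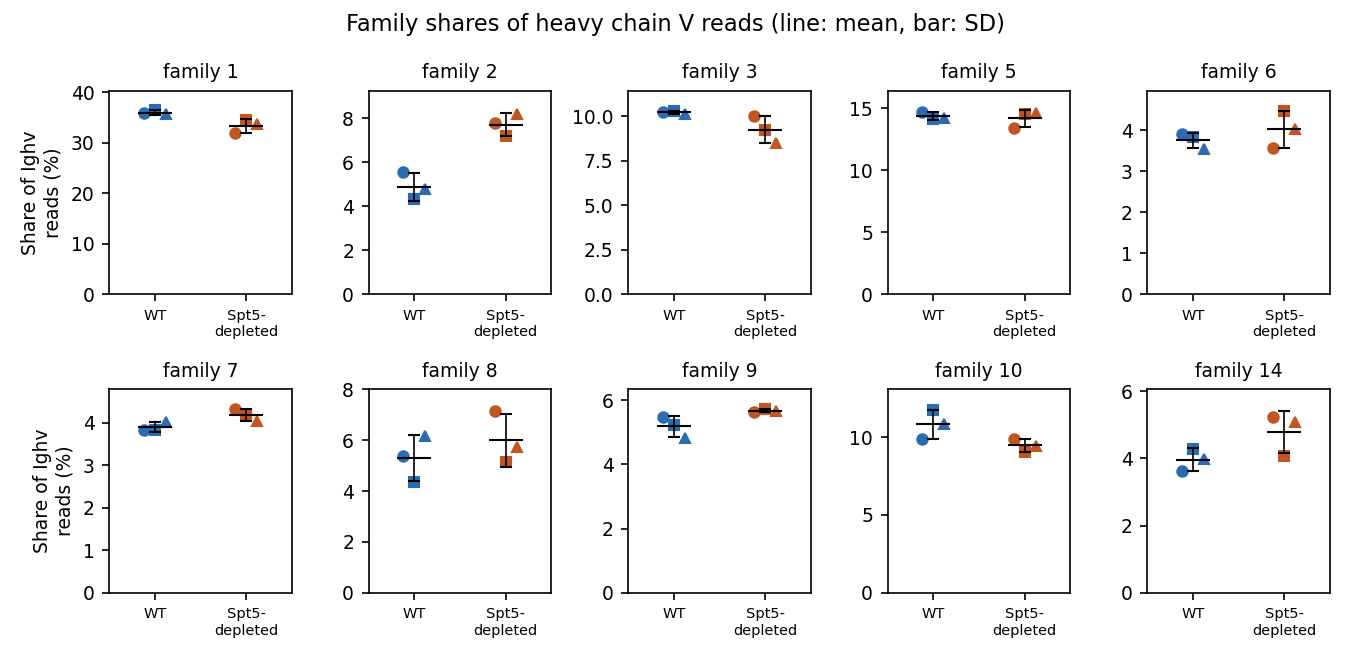
Share of all Ighv reads (%) taken by each family with at least 2% of them, in each WT and Spt5-depleted library, with group means and SD bars. Family 2 lies at 4.31% to 5.53% in WT and at 7.18% to 8.18% in depleted libraries, while families 1 and 5 change little against their size.

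All 97 names matched RefSeq entries of the GRCm38.p6 assembly. Because the authors' build was mm9, these entries were used only for the class of the segments and their order along the locus. RefSeq classes 92 of the 97 as V segments and 5 as V segment pseudogenes. The pseudogene class included Ighv7-3 and Ighv7-1, and both fell (log2 fold changes -0.99 and -1.36). Ordered from the D segments outwards, 19 of the nearest 28 tested rows were lower (median log2 fold change -1.01), as were 22 of the middle 27 (median -1.15) and 24 of the most distant 27 (median -1.24). All 7 tested family 2 rows lie in the nearest stretch, among members of family 5. Without them the nearest rows had a median of -1.08, and Spearman's rho between order and fold change over rows moved from -0.30 (82 rows) to -0.15 (75 rows). Rows of one library share its depth and scaling, so these correlations are descriptions. In the same stretch, 7 of 9 tested family 5 rows fell (median -1.13), against 1 of 7 for family 2 (median -0.38).

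**Figure D3:**
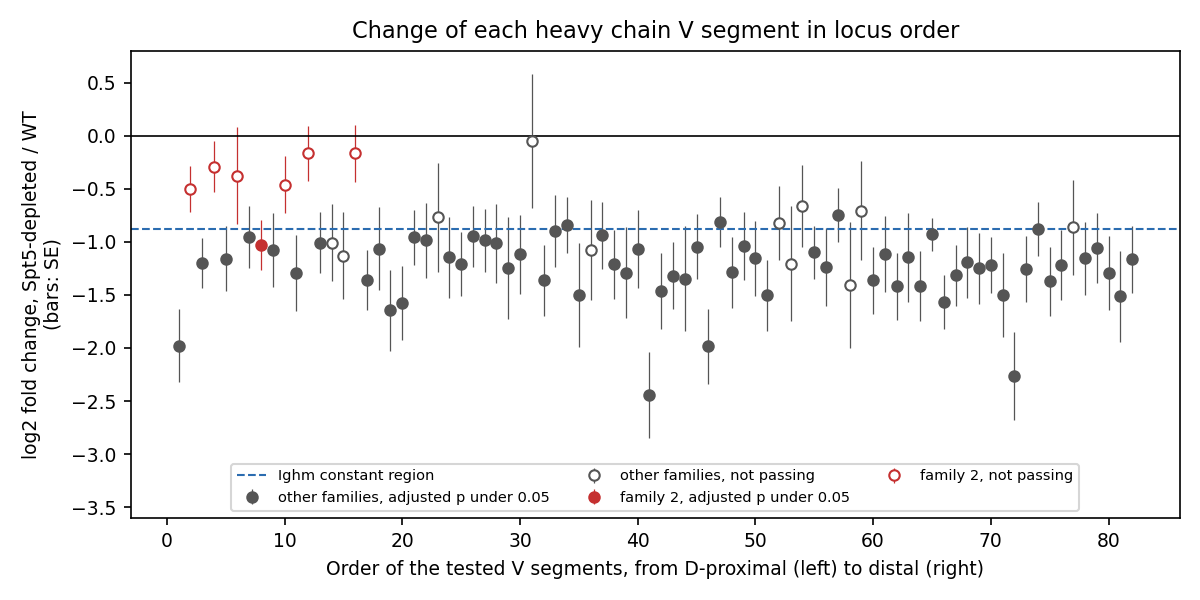
Log2 fold change (Spt5-depleted over WT, bars are SE) of the 82 tested Ighv rows, in their order from the D-proximal to the distal end, with filled points for adjusted p under 0.05 and a dashed line at the Ighm constant region. The family 2 rows sit at the left between -1.03 and -0.17, and the other points scatter around -1.15 along the whole order.

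The constant regions to which V exons are joined changed unequally. Of the 8 heavy constant regions measured, 5 fell, 1 rose and 2 did not pass, beside 30.6% lower and 31.8% higher of all tested genes. Ighm, which held 89.1% to 97.1% of heavy constant reads, had 18715, 38950 and 25870 CPM in WT and 15145, 13877 and 16348 CPM in depleted libraries (log2 fold change -0.88 ± 0.24 SE, edgeR adjusted p = 0.0117). WT replicate 2 was again the highest, and without Spt5-depleted replicate 1 the call was lost (-0.88, adjusted p = 0.0653). Ighg1 fell furthest, from 1633, 1765 and 1673 CPM to 174, 160 and 162 CPM (-3.36), and Ighe from 337, 323 and 361 CPM to 77.8, 54.2 and 62.2 CPM (-2.39). For both, the 3 WT libraries lay close together, WT replicate 2 included. Ighg2b and Ighg3 also fell (-1.54 and -1.04). Ighd rose from 37.7, 56.5 and 36.8 CPM to 83.0, 85.7 and 83.5 CPM (0.95 ± 0.14 SE, edgeR adjusted p = 0.000118). Ighg2a (-1.36) and Igha (-0.41) overlapped between groups. Counts of a constant region add rearranged and germline transcripts, which these counts do not separate.

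Against the summed constant regions, V reads did not shift beyond the replicate spread. There were 34.1, 37.7 and 28.9 Ighv reads per 1000 heavy constant reads in WT and 28.3, 30.8 and 31.4 in depleted libraries. The groups overlapped, and the mean log2 ratio differed by -0.15 (SD 0.19 in WT and 0.08 in depleted cells; exact permutation test, two-sided, p = 0.3). Against Ighm alone, there were 38.3, 40.2 and 31.8 Ighv reads per 1000 in WT and 29.3, 31.9 and 32.4 in depleted libraries (log2 difference -0.23, exact permutation p = 0.3). Shifts of this size could not be told from the replicate spread with 3 libraries a group. Against single constant regions that changed more, the ratio separated the groups. Ighv reads rose 4.94 times relative to Ighg1 and 2.56 times relative to Ighe, and were 4.07 times lower relative to Ighd, with no overlap in any of the 3 (exact permutation p = 0.1 each, the smallest possible, adjusted p = 0.34 over 17 ratios). Relative to Ighg2a, Ighg2b, Ighg3 and Igha the groups overlapped.

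Other segments of the immunoglobulin loci were set beside the V segments. The 4 heavy J segments, a set added after the table was seen, all fell, with Ighj4 at 28.3, 46.7 and 26.4 CPM in WT and 14.9, 16.7 and 17.8 CPM in depleted libraries (log2 fold change -1.03). The log2 ratio of Ighv to Ighj reads differed by -0.01 (SD 0.10 and 0.06, exact permutation p = 0.9), or 0.04 without WT replicate 2. Of 5 heavy D segment rows 0 passed the filter. Of 93 tested kappa V segments 53 fell and 0 rose, with a median log2 fold change of -0.62 (35 lower when scaled by library totals alone, and 43 lower and 1 higher without WT replicate 2), beside 30.6% lower of all tested genes. Igkc, the kappa constant region, fell by 0.41 on the log2 scale (edgeR adjusted p = 0.0242). The log2 ratio of Ighv to kappa V reads was -2.58, -2.12 and -2.38 in WT and -3.18, -3.09 and -2.87 in depleted libraries. Heavy V reads were thus 0.62 times their WT level relative to kappa V reads, without overlap between groups (exact permutation p = 0.1, adjusted p = 0.34), and the log2 difference was -0.68, or -0.56 without WT replicate 2. The ratio of kappa V to Igkc reads differed by 0.02. Of 3 lambda V segments 0 passed the edgeR test, 1 was lower with limma-voom, and without WT replicate 2 1 was lower and 1 higher.

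**Figure D4:**
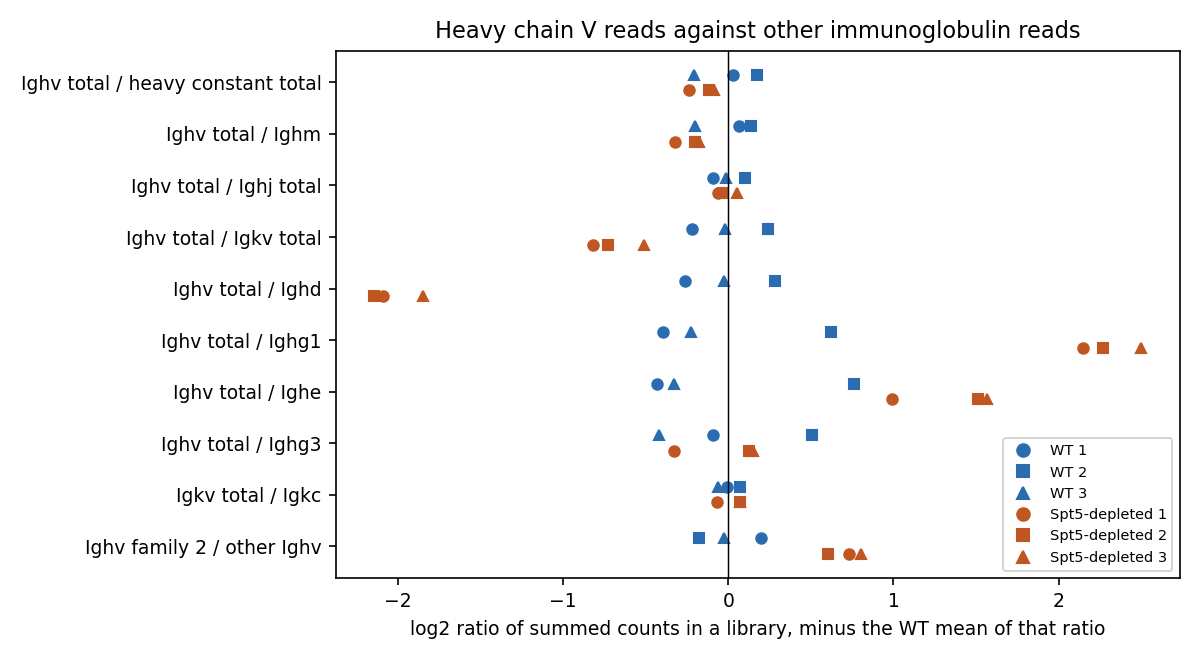
Log2 ratio of summed counts in each library, minus the WT mean of that ratio, for 10 pairs of immunoglobulin read sums. Ratios to all heavy constant reads, Ighm, Ighj and Ighg3 overlap between groups, while those to kappa V segments, Ighd, Ighg1 and Ighe, and of family 2 to other Ighv, separate the depleted libraries from WT.

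V segments varied more between WT replicates than most genes. The SD of log2(CPM + 0.5) over the 3 WT libraries had a median of 0.58 over the 82 tested Ighv rows, against 0.14 over all tested genes. Over the 3 depleted libraries the medians were 0.22 and 0.10. The SD was larger in WT than in depleted cells for 70 of 82 Ighv rows and for 64.1% of all tested genes. The counting error of each Ighv row, computed from its mean count without the added 0.5, had medians of 0.12 in WT and 0.18 in depleted cells. An SD of 3 values falls below the true SD more often than above it, so these medians are upper guides. In WT the excess was shared by the rows, and without WT replicate 2 the median SD was 0.15. When each row was expressed relative to the Ighv total of its library, the median SD was 0.14 in WT and 0.19 in depleted cells. Both lay somewhat above the medians of counting error. For the 12 rows with most reads, where counting error was 0.05 and 0.08, the relative SD was 0.12 and 0.10. The spread between WT libraries was thus smaller within the Ighv reads than in their total. The median biological coefficient of variation in edgeR was 0.25 for the Ighv rows and 0.10 for all tested genes, which widens the errors of the fold changes above.

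**Figure D5:**
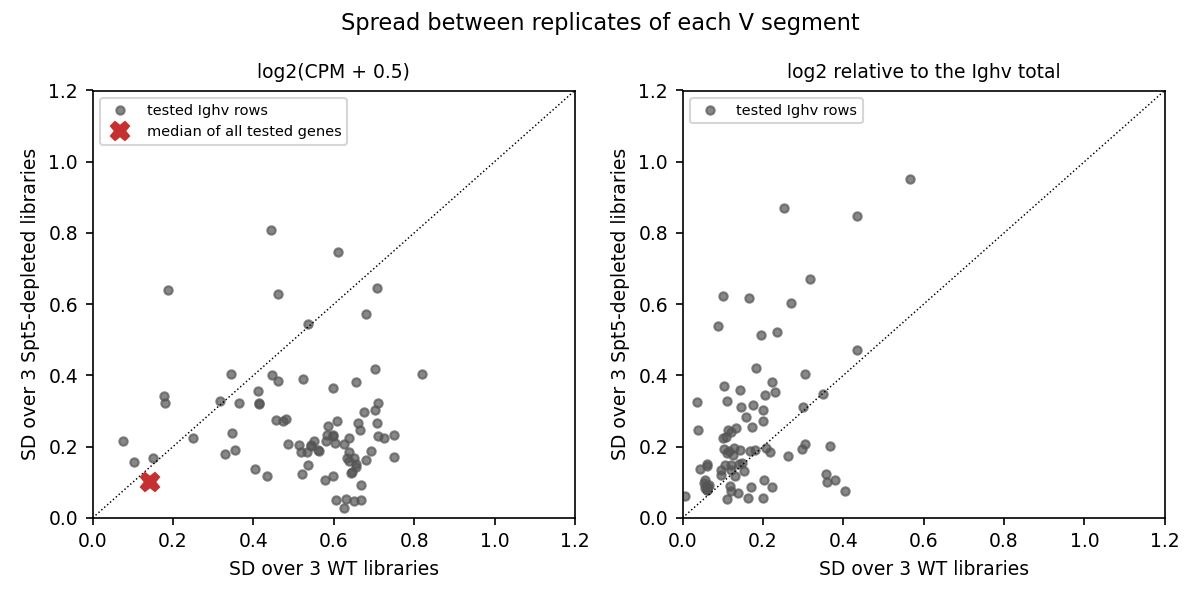
SD between WT libraries (x axis) and between Spt5-depleted libraries (y axis) of each tested Ighv row, for log2(CPM + 0.5) on the left and for values relative to the Ighv total of the library on the right. On the left most rows lie near 0.58 in WT, below the dotted line of equal SD and to the right of the median of all genes. On the right the medians are 0.14 in WT and 0.19 in depleted cells.

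Genes that act on V transcription or on the heavy chain were counted by list, and each count is to be read against the 30.6% of all tested genes that were lower and the 31.8% that were higher. Of 12 regulators of V segment transcription 4 fell and 1 rose (median log2 fold change -0.04), near the all-gene share for those that fell. Pou2af1, the coactivator of octamer factors on immunoglobulin promoters, fell from 1732, 1805 and 1534 CPM to 820, 764 and 808 CPM (-1.08 ± 0.09 SE, edgeR adjusted p = 1.47e-07), and Ezh2, a histone methyltransferase, fell too (-0.86). Spi1, which encodes the transcription factor PU.1, rose (0.29), and 0 regulators were higher without WT replicate 2 or without Spt5-depleted replicate 1. Of 5 tested non-immunoglobulin genes in or beside the Igh locus 3 rose and 2 fell. Adam6b, which lies between the V and the D segments, had 4, 5 and 6 counts in WT and 10, 13 and 18 counts in depleted libraries (1.59 ± 0.43 SE, edgeR adjusted p = 0.00477). It went in the opposite direction to the V segments, at a depth where a few reads move the estimate. Zfp386, with more reads, rose by less (0.53, edgeR adjusted p = 0.000375). The 2 that fell were Crip2 (-0.96) and Mta1 (-0.41). Of 10 tested genes for immunoglobulin folding and secretion 7 fell and 1 rose (median -0.81), with Hspa5, the chaperone BiP that binds free heavy chains, at -1.28, and Derl3 at -1.47. Sec11c, the 1 that rose (0.30), overlapped between groups, and 0 genes of this list were higher without WT replicate 3 or without Spt5-depleted replicate 1 or 2, and 2 without WT replicate 2. Of 7 B cell receptor partners 3 fell, among them Blnk and Btk, both at -0.74, a count too small to set apart from the all-gene share. Of 6 genes for the choice between membrane and secretory heavy chain ends 1 fell, Ptbp1 (-0.82).

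Markers of plasma cells and of other cell types were read beside the V segments. Of 7 tested plasma cell markers, some of which are also in the folding and secretion list, 2 rose and 2 fell, about the share of all tested genes. Sdc1 (log2 fold change 0.64) and Irf4 (0.37) rose, and Xbp1 (-0.70) and Mzb1 (-0.80) fell. Igj, the J chain gene, had 600, 1240 and 559 CPM in WT and 733, 659 and 727 CPM in depleted libraries, and so was high in WT replicate 2 as the V segments were. Xbp1 and Mzb1, at 1669 and 1689 CPM in WT replicate 2, were also highest there, and the part of plasma cells in the V values of that library was not tested. Summed T cell markers ranged from 16.5 to 19.3 CPM in WT and from 6.31 to 20.7 CPM in depleted libraries, with 0 of 7 called. Without Spt5-depleted replicate 2, the library with the highest sum, 4 of 7 were lower, and 1 was lower with limma-voom or with the replicate block. Of 7 tested macrophage and monocyte markers 5 rose (3 without WT replicate 1), beside 31.8% higher of all tested genes. The list summed to 77.1 to 104 CPM in WT and 107 to 186 CPM in depleted libraries. Not all 5 separated the groups. Cd14 did, but Csf1r and others overlapped through Spt5-depleted replicate 1. Csf1r had 0.25, 0.59 and 0.33 CPM in WT and 0.50, 1.64 and 1.34 CPM in depleted libraries. Of 3 tested dendritic cell markers 2 rose, and their sums were 85.4 to 99.7 CPM and 95.8 to 97.5 CPM. The part of these cells in the V values was not tested.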

How the data were processed

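Libraries were Lexogen SENSE preparations of poly(A) RNA, per the labels' protocols. The submitters' processing notes list featureCounts 1.5.0-p1, TopHat, Bowtie2 2.1.0 and cutadapt 1.10, build mm9 and DESeq2 1.10.1; how multi-mapping reads were counted was not given. The authors deposited whole read counts per gene, with their log2 fold change and adjusted p-value, used only where their table is named. Columns named KO were matched by number to the Spt5-depleted samples. The 18 samples of other assays were not analysed here.

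Counts were fitted in R 4.3.3 with edgeR 4.0.16 (filterByExpr, TMM, robust quasi-likelihood F test, two-sided, Benjamini-Hochberg over all tested rows, threshold 0.05) on the whole table of 12024 tested genes, and again with Ighv rows summed by family or in all. TMM takes the typical gene as unchanged. Ratios and shares were tested with exact permutation tests. Replicate pairs differed by more than sampling noise (chi-square per degree of freedom 6.36 to 32.5). Tests were tried on simulated data. Alternatives were other scalings, filters, DESeq2 1.42.0, limma 3.58.1 voom, the replicate block and leaving out each library.

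Text names the 12 Ighv rows with most reads, rows among the 10 smallest p, families with at least 2% of Ighv reads, all heavy constant regions, and up to 2 members per direction of other lists. Other rows named (families of 1 row, family 2 and family 5 rows, Ighv8-13, B cell, plasma cell and J segment rows) were chosen after their values were seen. Members and lists were chosen with earlier results of these data known.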

Additional observations from a re-analysis of the deposited data

How the results depend on the processing

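No called result recomputed here changed sign, and 0 Ighv rows and 0 families were called higher under any alternative. Estimates that were not called did turn: without WT replicate 2, 4 Ighv rows lay above zero, and the log2 ratios of Ighv to Ighj and to Ighg3 moved from -0.01 and -0.02 to 0.04 and 0.24. With a mean of at least 5 CPM, 37 of the 42 Ighv rows then tested were lower; the smaller count comes from fewer rows tested. Leaving out single libraries gave 38 to 70 lower Ighv rows, 4 to 11 lower families, and an estimate for the Ighv total between -1.35 and -0.72 (log2), called in all but the fits without WT replicate 3 (-1.28) and without Spt5-depleted replicate 1 (-1.10). The WT spread of Ighv rows (median SD) ran from 0.15 to 0.75, lowest without WT replicate 2. Scaling by library totals alone shifted the all-gene median (log2) from 0.005 to 0.16 and left 55 Ighv rows and 8 families lower; DESeq2's Wald test gave 65 and 10, and limma-voom 68 and 14. With the replicate block 70 Ighv rows and 12 families were lower and the Ighv total was -1.05 (adjusted p = 0.0197); it lost family 10 and Ighv10-1 and added family 12, Ighv5-16 and Igha. Same-numbered libraries did not deviate together (correlations 0.04, -0.04 and -0.01), and libraries of different numbers did not either (-0.07 to 0.09). Correlations near zero cannot decide whether the numbers mark a shared animal or day, which is not stated. The difference in the Ighv to heavy constant ratio stayed negative, between -0.25 and -0.06. Depth limits rows below the filter, and sequence likeness within families limits single rows.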
